A study of Mus musculus with 5 samples.

Results

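Of 161264 restriction fragments of the mouse genome that carried calls on at least 10 DNA molecules in each of 3 libraries of CD8+ T cells, 711 were methylated at 40 to 60% in all 3. These 711 intermediately methylated fragments were selected on their level, the share of methylated CpG calls among all calls of a fragment, so the level itself is a description of how they were chosen and carries no test. The rule did not use how the calls were arranged along single molecules. The arrangement was therefore examined: whether each molecule was wholly methylated or wholly unmethylated, or held both states, and whether 2 clones of cells held the same arrangements.

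The cells were primary CD8+ T cells of C57BL/6 mice, the cytotoxic lineage of T lymphocytes. Naive T cells from the spleen had been cultured with IL2, and individual CD8+ cells had been sorted and grown into clones. The population library is the non-clonal CD8+ cells (1 sample, with no division number in its label), and clone 1 and clone 2 (2 samples each) are 1 founder cell's descendants each, labelled with 15 cell divisions. No genotype change, drug or age is labelled. DNA had been cut with MspI, ligated to plasmids that carry a random tag for each molecule, and converted with bisulfite, so that each row of the deposited data is 1 tagged molecule that reports the state of the CpGs it covers. Both samples of a clone stand in 1 deposited file, so every value below comes from 3 pooled libraries with no spread between replicates, and tests on molecules compare those libraries, not clonal with non-clonal cells in general.

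Methylation of cytosine in CpG dinucleotides is copied after DNA replication by the maintenance methyltransferase Dnmt1 and can be laid down anew by Dnmt3a and Dnmt3b. Most CpG-rich fragments are unmethylated and most CpG-poor ones methylated. An intermediate level can be made of fully methylated and fully unmethylated molecules, as is known where both parental copies of a locus differ, for example at imprinted genes, or of molecules that each carry both states. Bulk levels cannot separate these, whereas calls on single molecules can. The files name each fragment by a number only, with no coordinate or gene, so fragments are given here by that number, and positions, genes, cell identity markers and sequences were not analysed here.

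The 3 libraries held 8463942 molecules in the population library, 11969176 in clone 1, and 8977287 in clone 2. A member had a median of 23 molecules with a call in the population library (range 10 to 116), 29 in clone 1 (lowest 10, highest 133), and 24 in clone 2 (lowest 10, highest 138), close to the medians of 23, 29 and 23 over all 161264 fragments. Members carried a median of 5 CpGs (range 2 to 40). Of the 711, 52 had 2 CpGs, 249 had 3 or 4, 310 had 5 to 9 and 100 had 10 or more. Fragments with 10 or more CpGs made up 14.1% of the members and 17.8% of all fragments. The median level of the members was 48.7% in the population library, 50% in clone 1, and 50.9% in clone 2, as the selection fixed it.

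In single libraries, 5696 fragments lay at 40 to 60% in the population library, 6466 in clone 1, and 6305 in clone 2. The 711 members are 12.5% of the first, 11% of the second and 11.3% of the last of these sets. Another 3457 fragments were in the range in exactly 2 libraries and 9420 in exactly 1. The limit was not a natural gap: 62 members had a level exactly on it, and 369 of the 3457 fragments missed it in the remaining library by at most 2 percentage points. Fragment 36158, just inside, had levels of 49.2, 48.8 and 40%, and fragment 1588147, just outside, had 39.95, 47.9 and 43.9%. Which fragments met the rule also depended on the calls used. Without calls at the first and last CpG, 573 fragments met it, of which 232 were among the 711, and with only molecules of 2 or more reads 153 did, of which 79 were.

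Molecules of these fragments were mostly mixed rather than all-or-none. For 187 members, a window of 4 consecutive CpGs was read on at least 10 molecules in each library. The share of window molecules that held both a methylated and an unmethylated CpG, called the mixed share below, was 58.0% in the population library (95% Wilson interval 56.3 to 59.6, 3420 molecules), 63.2% in clone 1 (61.8 to 64.6, 4566 molecules), and 63.7% in clone 2 (62.2 to 65.1, 4258 molecules). The intervals cover counting error over molecules only. Fully methylated windows made up 17.7, 16.1 and 16.8% of molecules, and fully unmethylated ones 24.3, 20.7 and 19.5%, so the non-mixed molecules leaned slightly to the unmethylated state in each library.

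The remaining members could not enter that measure. Of the 410 with 5 or more CpGs, 223 had fewer than 10 window molecules in at least 1 library. Except for a few molecules, those read from the plus strand carried no call at the fragment's last CpG and those from the minus strand none at the first, so windows of 4 were read on fragments with at least 5 CpGs. Of 143 members with 3 CpGs, 76 could be read on pairs of CpGs, with a mixed share of 56.6% in the population library, 64.8% in clone 1, and 67.5% in clone 2. Of 106 members with 4 CpGs, 35 could be read on triples, with 75, 75.3 and 76.5%. Shorter windows can hold fewer mixed patterns, so these shares are not comparable with those of 4 CpGs, but they also put most molecules in the mixed state.

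The spread between members was wide, and wider in the clones. The median mixed share of the 187 members was 61.5% in the population, with quartiles of 43.3 and 79.6%. In clone 1 it was 73.1%, with quartiles of 44.4 and 95.0%, and in clone 2 73.3%, with quartiles of 50 and 95.2%. If the 4 CpGs of a window took their states independently at their observed levels, the medians would be 87.8, 90.1 and 90.4%. The observed share was below that value in 177 of 187 members in the population but in 131 in clone 1 and 130 in clone 2, and in all 3 libraries for 98. CpGs on 1 molecule thus shared their state more often than independent CpGs would in nearly every member of the population library, and the molecules were nonetheless far from uniform. A window with a CpG at 0% and another at 100% cannot lie below, since its observed and independent shares are both 100%. Fragment 948328 in clone 1 is an example. CpGs at or near such levels were commoner in the clones (6.28, 27.8 and 26.7% of window CpGs). The clones' lower counts therefore do not by themselves show less agreement along molecules.

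**Figure D1:**
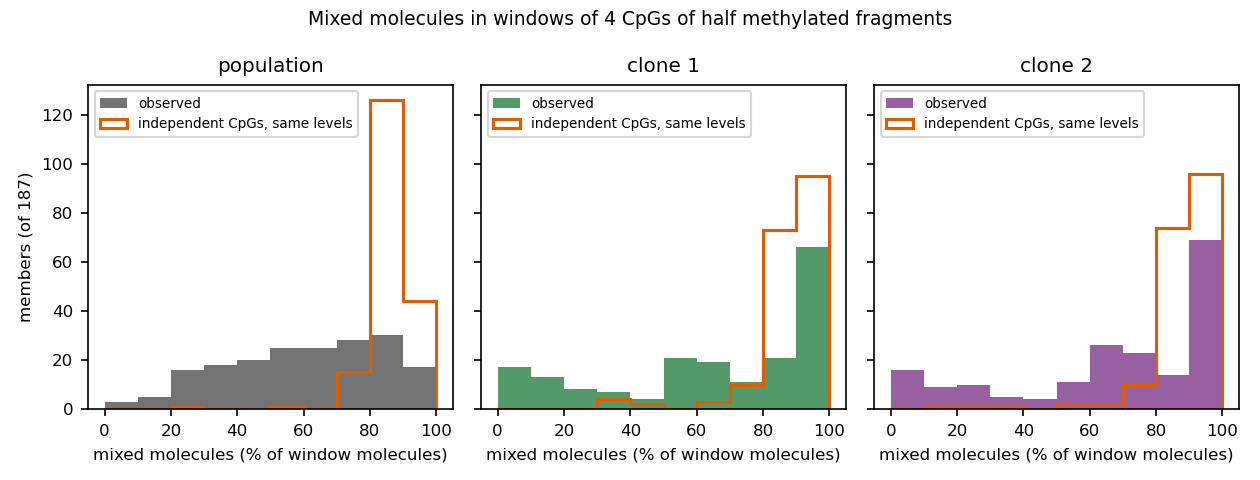
Distribution of the mixed share (x axis, % of window molecules that hold both states) over the 187 intermediately methylated fragments with a readable window (y axis, number of fragments), 1 panel per library. Filled bars are observed values and the outline is the share that independent CpGs with the same levels would give. The observed shares spread from near 0 to 100%, with medians of 61.5, 73.1 and 73.3%, while the outline piles up near its medians of 87.8, 90.1 and 90.4%.

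Over all 51562 fragments with a readable window, most of them near 0 or 100% methylated, 18.1, 19.6 and 19.2% of molecules were mixed, with medians of 11.2, 9.09 and 8.70%. Fragments at 40 to 60% in only the library being read are the closer comparison, and their mixed shares were 62.7% in the population library (526 fragments), 69.8% in clone 1 (643), and 68.4% in clone 2 (716). The members lay below them in each library. Members without fragment numbers from 1500000, however, had 66.2, 72.2 and 73.4%, above these values. The comparison fragments were not recomputed without those numbers, so the order of the 2 sets is not settled. The difference between the sets was not tested, since molecules of 1 fragment are not independent samples of the set.

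Adjacent CpGs could be read on more fragments. In 460 of the 659 members with 3 or more CpGs, 1 adjacent pair of CpGs per member was read, the pair seen on most molecules. Its CpGs were in opposite states on 38.5% of molecules in the population library, 42.2% in clone 1, and 43.9% in clone 2. The medians over members were 37.5, 42.9 and 46.3%, and independent CpGs would have given medians of 50, 49.95 and 50.6%. Opposite states were on at most 10% of molecules in all 3 libraries for 12 members and on at least 50% in all 3 for 78. CpG-dense members were more uniform at this pair, with opposite states on 26.2, 25.7 and 25% of molecules in 82 members with 10 or more CpGs. Other pairs of these fragments were not read. Of all members with 10 or more CpGs, 39 had fragment numbers from 1500000 and 61 lower ones, and these were not separated here.

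Members were sorted by their mean mixed share over the 3 libraries into all-or-none (20% or less, 9 members, 4.81%), partly mixed (above 20 and below 50%, 44 members, 23.5%) and mostly mixed (50% or more, 134 members, 71.7%). The all-or-none and partly mixed fragments had a median of 10 CpGs and the mostly mixed ones of 6. Read in each library alone, 10 members were all-or-none in the population library, 31 in clone 1, and 26 in clone 2. A total of 103 members kept 1 class in all 3 libraries, of which 99 were mostly mixed, 3 all-or-none and 1 partly mixed. No member was free of mixed molecules in all 3 libraries. The rule fixed the level of the fragment and not of its window. A low mixed share in 1 library can therefore also come from a window mostly in 1 state.

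Fragment 1430433, with 10 CpGs, had the lowest mean mixed share. Below, ● stands for a methylated and ○ for an unmethylated CpG of the window, in the fragment's order. In the population, 13 of its 26 window molecules read ○○○○ and 12 read ●●●●. Clone 1 had 14 and 11 of 25, and clone 2 had 5 and 4 of 11. Each clone, grown from 1 cell, thus held both complete patterns in near equal number.

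Fragment 1592502, with 26 CpGs, showed the same arrangement with more mixed molecules in the population. There, 12 of 28 molecules read ○○○○, 7 read ●●●● and 32.1% were mixed. In clone 1 the counts were 14 and 13 of 28, and in clone 2 17 and 17 of 35. Complete patterns filled 96.4% of the window molecules of clone 1 and 97.1% of those of clone 2, above the 67.9% of the population.

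At the opposite end were fragments with nearly no uniform molecule, and their patterns were alike between the clones in some and not in others. Fragment 948328 read ○○●● on 20 of 27 molecules in clone 1 and on 16 of 23 in clone 2. Fragment 382181 was led by ○●●○ and ●●●○ in both clones. In fragment 1028497, by contrast, the first CpG was methylated at 16.7, 72.7 and 0% in the population, clone 1 and clone 2, and the CpG after the second at 33.3, 9.09 and 60%. Fragment 47697 had its second CpG at 57.1, 0 and 6.67%. In 14 of the 187 members, all of them among the 134 mostly mixed, the window held a CpG at 80% or more and another at 20% or less in all 3 libraries, so that there the intermediate level averaged CpGs of different states. In 10 members, 8 of them all-or-none and 2 partly mixed, the 4 CpG levels lay within 20 points of each other in all 3.

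Fragments with 2 CpGs were read CpG by CpG, since 14 of their 1132 molecules with a call in the population, 26 of 1629 for clone 1 and 25 of 1393 for clone 2 covered both. Of the 35 with at least 5 molecules at each CpG in each library, the first CpG was 60 points or more above the second in all 3 libraries in 5 members, and the second above the first in 6. The median difference between the CpGs, averaged over libraries, was 64.6 points, and only 1 of the 35 had both CpGs within 20 points in all 3. In fragment 1497068 the first CpG was methylated on 0 of 25, 0 of 29 and 0 of 15 molecules in the population, clone 1 and clone 2, and the second on 19 of 20, 24 of 25 and 21 of 22. Fragment 1296474 had the reverse order, with 13 of 14, 20 of 22 and 17 of 17 at the first CpG and 2 of 17, 0 of 26 and 0 of 21 at the second. In both fragments the level was the mean of a mostly methylated and a mostly unmethylated set of calls. Their first CpG was read on plus and their second on minus molecules, so CpG and strand cannot be told apart there. Not all 2-CpG members showed such a difference, and 3 of the 35 had both CpGs at 25 to 75% in all 3 libraries.

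**Figure D2:**
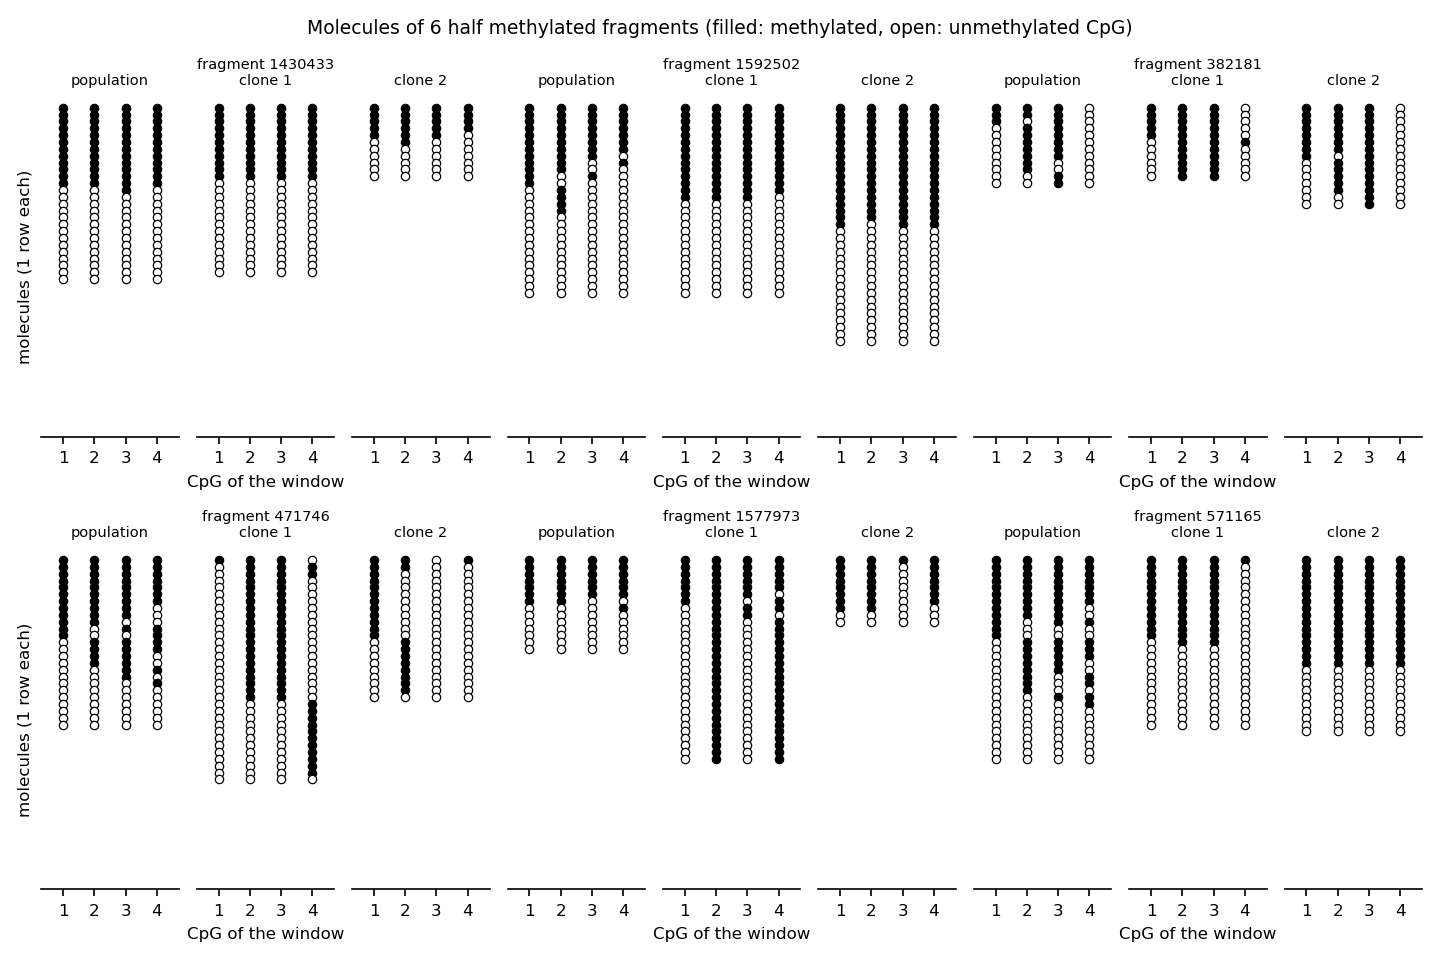
Window molecules of 6 fragments in each library, 1 row of dots per molecule (x axis, CpG of the window; y axis, molecules sorted by pattern), filled for methylated and open for unmethylated CpGs. The first 2 fragments (1430433 and 1592502) are made mainly of complete rows in all libraries, the next (382181) ends its windows with a methylated CpG before an unmethylated one on most molecules, and the last 3 (471746, 1577973 and 571165) change their patterns between libraries.

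Each clone held a few patterns, where the population held many. The number of different patterns in 10 molecules, averaged over draws from a fragment's window molecules, had a median of 5.77 in the population library, 3.35 in clone 1, and 3.68 in clone 2. It was lower than in the population in 173 of 187 members in clone 1, in 163 in clone 2 and in 157 in both. The 2 commonest patterns of a member took a median of 54.2% of its window molecules in the population library, 83.3% in clone 1, and 80% in clone 2. They took at least 80% in 13 members in the population, in 114 in clone 1 and in 96 in clone 2. In 75 members both clones passed that mark, and in 68 of these the population did not.

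In the mostly mixed members these 2 patterns often differed at 1 or 2 CpGs. Of 68 such members of clone 1 in which 2 patterns took 80% or more, the patterns differed at 1 CpG in 30, at 2 in 21, at 3 in 14 and at all 4 in 3. In clone 2 the counts were 17, 16, 18 and 1 of 52. Fully methylated and fully unmethylated windows were the leading pair in 1 mostly mixed member of each clone. That rarity is set by the class, which needs a mean of 50% or more mixed molecules. Over all classes they were the leading pair in 30 of 109 such members in clone 1 and 24 of 89 in clone 2. Mixed molecules of mostly mixed members changed state once along the window in 53.2% of cases in the population library, 53.9% in clone 1, and 53.2% in clone 2, and independent CpGs would give 47.8, 49.9 and 48.3%.

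Single CpGs were more often complete in the clones. Of the 748 CpGs in the 187 windows, 6.28% were at 10% or less or at 90% or more in the population library, 27.8% in clone 1, and 26.7% in clone 2. At 40 to 60% lay 43.6, 32.2 and 35.8% of them. In 93 CpGs both clones were complete, with the same state in 85 and opposite states in 8. Taking each CpG's level as its deviation from the mean of its window in that library, Pearson's r over the 748 CpGs was 0.61 between the population and clone 1, 0.58 between the population and clone 2 and 0.46 between the clones. CpGs of 1 fragment share molecules, so these are descriptions.

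The clones shared complete patterns but often differed in their mixed ones. The chance that 2 molecules of a member held the same pattern had a median of 15.2% within the population, 36.1% within clone 1 and 32.7% within clone 2. Between molecules of different libraries it was 15.1% for both clones, 16.9% for the population and clone 1 and 14.8% for the population and clone 2. The identity between the clones divided by the mean identity within them, which is near 1 where both hold the same patterns in the same shares, had a median of 0.497. It was under 0.5 in 94 members and at least 0.9 in 41. By class the medians were 1.03 for all-or-none, 0.529 for partly mixed and 0.424 for mostly mixed members, and a fragment with few mixed molecules has few patterns in which clones can differ.

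Fragments outside the set gave similar ratios. The median was 0.545 in 325 fragments at 40 to 60% in both clones but not in the population, and 0.595 in 526 that were in the range only in the population. Patterns were thus also shared little between the clones outside the 711.

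**Figure D3:**
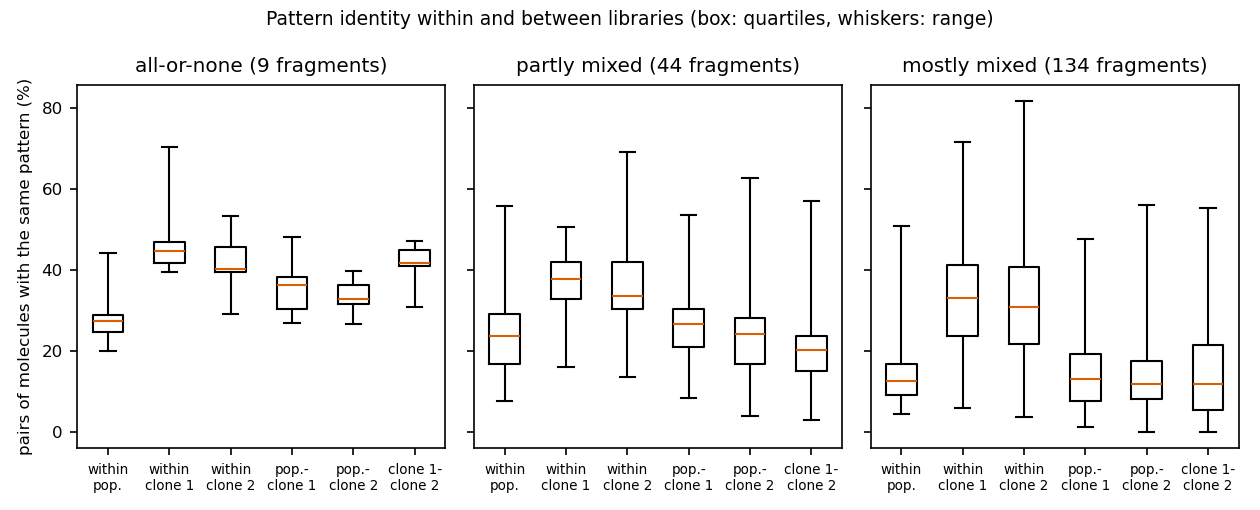
Chance that a pair of molecules of a fragment holds the same window pattern (y axis, %), within each library and between libraries, for the all-or-none, partly mixed and mostly mixed members. Boxes span the quartiles with the median as a line, and whiskers the range over fragments. Over all 187 members the medians within the clones are 36.1 and 32.7%, against 15.1% between the clones and 15.2% within the population.

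Leading patterns were also counted on their own. In 141 members the 2 commonest patterns of both clones were clear of ties. The clones shared neither in 36, 1 in 82 and both in 23. All 8 all-or-none members compared shared both. Of 38 partly mixed members, 31 shared 1 and 7 both. Of 95 mostly mixed members, 36 shared neither, 51 shared 1 and 8 both. The classes were sorted on the mixed share, with both clones included. Members with few mixed molecules are led by complete patterns, so this order by class largely follows from the sorting. The commonest mixed pattern was the same in both clones in 29 of 125 members (23.2%).

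Individual fragments show what differing patterns look like at an equal level. Fragment 99025 was led by ○●●● in clone 1, on 11 of 16 molecules, and by ●○●● in clone 2, on 8 of 14. Fragment 155824 was led by ●●○○ in clone 1, on 7 of 11 molecules, and by ●●●○ in clone 2, on 10 of 11. Levels in clone 1 and clone 2 were 54.6 and 43.3% for fragment 99025 and 42.9 and 52.7% for fragment 155824. The window of fragment 155824 also differed in level, with CpGs at 100, 72.7, 9.09 and 9.09% in clone 1 and 100, 90.9, 100 and 0% in clone 2. In fragment 471746 clone 1 held ○●●○ on 18 and ○○○● on 11 of 33 molecules, whereas clone 2 held ●○○○ on 10 and ○●○○ on 8 of 21. The population held none of these as a leading pattern there: 7 of 25 molecules read ●●●● and 6 read ○○○○. The window CpGs of fragment 471746 also differed in level, at 3.03, 63.6, 63.6 and 39.4% in clone 1 and 57.1, 47.6, 0 and 4.76% in clone 2.

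The mixed share itself was compared between libraries molecule by molecule, with Fisher's exact test (two-sided), p-values adjusted by Benjamini-Hochberg over all fragments tested and a call at an adjusted p below 0.05 and a difference of 20 percentage points or more. Between the population and clone 1, 209 members could be tested and 9 were called (4.31%), beside 2.65% of all 59215 fragments tested. In 7 members the share was higher in clone 1 (background 1.94%) and in 2 lower (background 0.703%). Without adjustment, 55 members had a p below 0.05. The median difference was 8.79 points towards clone 1, with 130 members higher and 74 lower, while over all fragments tested the median difference was 0.

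Clone 2 gave similar counts against the same population library. Of 190 members tested, 8 were called (4.21%, background 2.87%), 5 higher in clone 2 (background 2.2%) and 3 lower (background 0.669%). An unadjusted p below 0.05 was found in 61, and the median difference was 10.0 points. It was 11.5 points in 438 fragments in the range in both libraries, and -4.07 points in 836 in the range in the population but not in clone 2. Both comparisons share the population, so they do not support each other. With only molecules of 2 or more reads, 27 members could be tested against clone 1 and 35 against clone 2, and 0 were called by the same Fisher's exact test, with 4 in each at an unadjusted p below 0.05. Over all fragments that setting called 0.575 and 0.863%. Fragments at 40 to 60% in both libraries of a comparison were called in 5.18% of cases against clone 1 and 5.71% against clone 2.

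In fragment 1562411, all 38 molecules of clone 1 were mixed and 16 of 35 of the population's (Fisher's exact test, Benjamini-Hochberg adjusted p = 2.21e-05). Its population molecules were led by ○○○○ (14) and ●●●● (5), and those of clone 1 by ○○●● (28) and ○○●○ (7). Fragment 1577973 had 2 of 14 mixed molecules in the population library, and clone 1 had 25 of 30 (Fisher's exact test, adjusted p = 0.00287), of which 21 read ○●○●. Fragment 471746 rose in both clones, from 12 of 25 to 32 of 33 and to 20 of 21, with different patterns in each. In fragment 571165, clone 2 had 0 of 26 mixed molecules where the population had 15 of 30 (Fisher's exact test, adjusted p = 0.00177), where 16 molecules read ●●●● and 10 read ○○○○, while clone 1 held ○○○○ on 12 and ●●●○ on 11 of 25.

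Between the clones, of 221 members tested, 51 were called (23.1%, background 9.34%), 27 with a higher mixed share in clone 2 (background 4.74%) and 24 with a lower one (background 4.59%). An unadjusted Fisher's exact p below 0.05 was found in 69 (31.2%), beside 26.3% of the members tested between the population and clone 1 and 32.1% between the population and clone 2. The median difference was 0, so there was no shift in 1 direction. Over the 187 members the median absolute difference was 13.2 points between the clones, smaller than the 18.6 and 20 points from the population to clone 1 and to clone 2. The clones' higher count of calls thus did not come with a larger share of members at an unadjusted p below 0.05 than in both other comparisons. Nor did it come with a larger median absolute difference. With only molecules of 2 or more reads, 4 of 37 members were called, beside 4.41% of all fragments. Fragments at 40 to 60% in both clones, whatever the population's level, were called in 20.6% of cases, so the share is that of intermediate fragments rather than particular to those that were also intermediate in the population. Wide switches were nonetheless commoner between the clones. In 29 of the 187 members, 1 clone was all-or-none and the other mostly mixed. Such pairs numbered 8 between the population and clone 1 and 7 between the population and clone 2. Across the 187, Pearson's r of the mixed share was 0.48 between the clones, 0.62 between the population and clone 1 and 0.60 between the population and clone 2.

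Fragment 258560, with 14 CpGs, differed most. All 10 population molecules and all 27 molecules of clone 2 were mixed, but 2 of 22 in clone 1 (adjusted p of the clones' difference 3.57e-09, two-sided Fisher's exact test). Clone 1 held ○○○○ on 11 and ●●●● on 9 molecules, and clone 2 held ●○○● on 11 and ○○○● on 9. Fragment 1142690, with 33 CpGs, was mixed on 89.5% of molecules in clone 1 and 20.0% in clone 2. In each of these the level of the whole fragment was 40 to 60% in both clones, but that of the window was not fixed. In clone 2, 16 of 20 window molecules of fragment 1142690 read ●●●● and 4 read ●●●○. Its low mixed share there thus came with a mostly methylated window, not with 2 complete patterns.

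**Figure D4:**
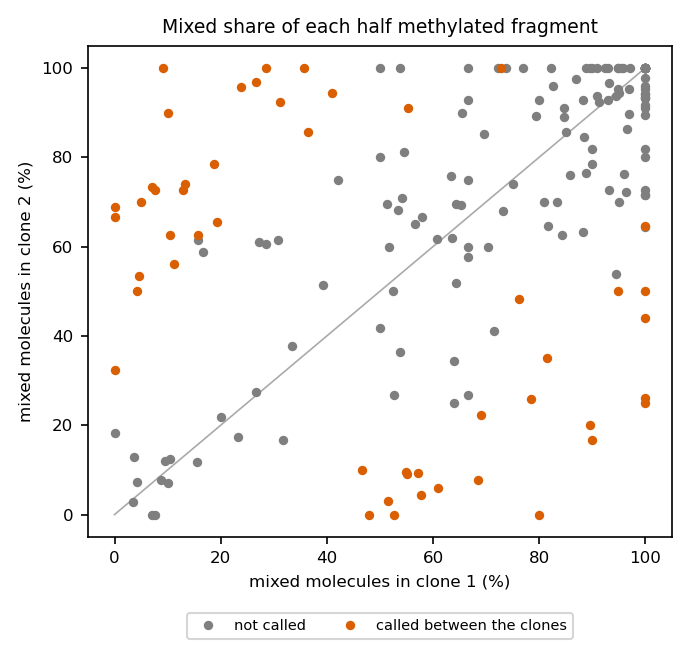
Mixed share in clone 1 (x axis, % of window molecules) against clone 2 (y axis, %) for the 187 members with a readable window, 1 point per fragment, with the line of equal shares. Orange points are members called different by Fisher's exact test. Points gather at the upper right, near 100% in both clones, and called members lie far off the line on both sides, 27 above it and 24 below among the 221 tested.

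Methylation on plus and minus molecules was compared because the level pools both strands. With a molecule called methylated where over 50% of its calls were, and 10 molecules required on each strand, 9 of 342 members differed between strands in the population library (2.63%, background 0.123%), 48 of 420 in clone 1 (11.4%, background 1.62%), and 29 of 297 in clone 2 (9.76%, background 1.25%). Fragments in the range in only the library being read are the closer comparison. Of these, 1.02% of 1273 were called in the population library. The share was 11.1% of 1878 for clone 1 and 9.56% of 1224 for clone 2, close to that of the members. Short fragments made most of the members' calls. With 2 CpGs, 4 of 24, 23 of 33 and 16 of 25 members were called. With 5 or more, 1 of 182, 6 of 223 and 5 of 168 were called. Plus and minus molecules of a fragment see different CpGs at its ends, so this test also reads differences between CpGs. When only molecules with the same 4 CpGs were used, 0 of 37, 0 of 95 and 0 of 77 members were called, with 1, 2 and 2 at an unadjusted p below 0.05. That test reached few of the members called above: it cannot be run on fragments with 2 to 4 CpGs, which made 8 of the 9, 42 of the 48 and 24 of the 29 calls, and of all these called members it held 0, 2 and 0. Whether the calls come from different CpGs or from the strands therefore cannot be told apart with it. Over all fragments, 0% in the population library, 0.0269% in clone 1, and 0.0231% in clone 2 were called on the same 4 CpGs. Of 178 members tested in all 3 libraries on all calls, fragments 551894, 1296474 and 1497068 differed by 80 points or more in the same direction in each. They have 3, 2 and 2 CpGs.

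The level in the remaining library is independent of a choice made on the other 2, and was read for each library in turn. Of 1895 fragments at 40 to 60% in both clones, 37.5% were also in that range in the population. Of 1807 chosen in the population and clone 2, 39.3% were in clone 1, and of 1888 chosen in the population and clone 1, 37.7% were in clone 2. With those included, 88.2, 86.9 and 85.0% were at 20 to 80%. Of the fragments outside 40 to 60% in the remaining library, 81.1% of 1184 in the population, 78.4% of 1096 for clone 1 and 75.9% of 1177 for clone 2 were at 20 to 80%. Complete levels were rare, with 2.11, 1.22 and 1.22% at 10% or less and 0.633, 3.04 and 4.03% at 90% or more. By the mixed share in the choosing libraries, 65.0% of 20 all-or-none fragments returned to the range in clone 1, but 40% of 35 in the population library and 36.7% of 30 in clone 2, beside 41.7, 35.3 and 38.9% of mostly mixed fragments, so all-or-none molecules did not go with a steadier level in every library.

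Few fragments that were intermediate in the population became complete in opposite directions in the clones. Of the 5696 at 40 to 60% in the population, 711 were in that range in both clones, 103 were at 10% or less in both or at 90% or more in both, and 6 were complete in opposite directions. None of the 75 all-or-none fragments of the population was complete in both clones, and 11 were at 40 to 60% in both.

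Adjacent fragment numbers carried similar levels. Members had 243 neighbours by number with 10 molecules in each library. Of these, 108 (44.4%) were at 20 to 80% in all 3 libraries, compared with 7.53% of the neighbours of all fragments, but for neighbours of fragments in the range in exactly 2 libraries it was 42.5%. Among the members were 2 pairs with consecutive numbers, 1576482 with 1576483 and 1588579 with 1588580. The files do not say that consecutive numbers touch on the chromosome.

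Members were unevenly spread over fragment numbers. In 15 blocks of 100000 numbers up to 1500000, 0.291 to 0.555% of fragments were members, 605 of 153693 in all (0.394%). From number 1500000 on it was 106 of 7571 (1.40%). This last block was singled out after its values were seen. Within it, numbers 1500000 to 1509999 held 4 members among 1335 fragments (0.300%), and numbers 1510000 to 1519999 held 2 among 954 (0.210%). From number 1520000 on, ranges of up to that width held 0.828 to 2.61%, so the rise began inside the block. The members of the whole block had a median of 40% mixed molecules in the population library, 51.7% in clone 1, and 58.8% in clone 2, where members with lower numbers had 75.5, 89.2 and 90.9%. Of the 63 classed members in it, 6 were all-or-none, 33 partly mixed and 24 mostly mixed. Of the 124 elsewhere, 3 were all-or-none, 11 partly mixed and 110 mostly mixed.

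The block differed in its CpG-rich fragments above all. Of fragments with 10 or more CpGs, 39 of 1214 (3.21%) were members there and 61 of 27429 (0.222%) elsewhere. The median levels of these CpG-rich fragments were 33.0, 40.6 and 39.6% in the population, clone 1 and clone 2 in the block, and 1.79, 1.58 and 1.69% elsewhere. The clones' difference in mixed share was also called more often there, in 29 of 70 members tested (41.4%) and in 22 of 151 elsewhere (14.6%). Without the block, the mixed shares of the members were 66.2, 72.2 and 73.4%. Which chromosome these numbers belong to was not analysed here.

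**Figure D5:**
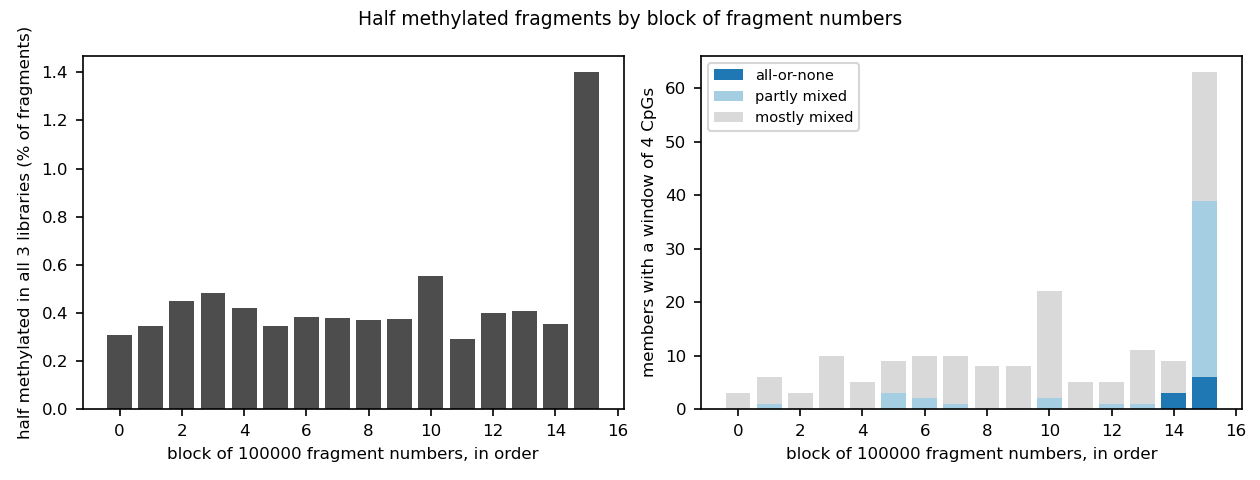
Members by block of 100000 fragment numbers in order (x axis): left, the share of fragments that are members (y axis, %); right, the number of members with a readable window (y axis), stacked by class. The last block stands at 1.40% against 0.291 to 0.555% in the others, and holds 6 of the 9 all-or-none and 33 of the 44 partly mixed members.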

How the data were processed

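The deposited files give, per molecule, a fragment number, a strand, a tag, a string of CpG calls, a whole-number count of reads and a further count whose meaning is not given in the sources used here. Per the labels' protocols, MspI fragments were size selected, tagged and bisulfite converted. Bismark and mm9 are named, without version, in the submitters' processing notes.

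The members, classes and lists of fragments were chosen with earlier results of these data known. Every tagged molecule counted once, whatever its reads. The window was the 4 consecutive CpGs with most fully observed molecules, judged by the library with fewest, and needed 10 molecules in each library. The design foresaw all CpGs for fragments with 2 or 3. Since strands see different end CpGs, pairs were used for 3 CpGs, triples for 4, and CpG levels for 2. Python 3.11.15, numpy 2.4.6, scipy 1.17.1 and pandas 2.3.3 computed shares, Wilson intervals and Fisher's exact tests with Benjamini-Hochberg adjustment, and the tests were tested on simulated data. Molecules with a call numbered 5588357, 7013054 and 5567534.

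Fragments were named by rule among members with a readable window: the 6 lowest and 6 highest mean mixed shares, up to 5 calls per comparison by widest difference, the 4 mostly mixed members with patterns most and the 4 least alike between clones, runs of consecutive numbers and the 3 with most CpGs. Members at the range's limit, with 2 CpGs or a strand difference were named after their values were seen. Alternatives changed the molecule minimum, level range, level measure, reads per molecule, window length, deep strands and end CpGs.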

Additional observations from a re-analysis of the deposited data

Results flagged for a closer look

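Between clone 1 and clone 2, the share of mixed molecules differed in 51 of the 221 members tested (Fisher's exact test, two-sided, p-values adjusted by Benjamini-Hochberg, minimum of 20 points). The share called was 23.1%, beside 9.34% of all fragments tested and 20.6% of fragments at 40 to 60% in both clones. Each clone is 1 library here, so the count says that these libraries differ. The level of the same fragments was at 40 to 60% in both clones by selection, which did not fix the level of the window.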

How the results depend on the processing

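No paired analysis was possible because both replicates of each clone stand in 1 file and the population has 1 sample, and for the same reason no replicate could be left out. Of the alternatives, 39 values stayed within the main value's counting interval, within 1.5 times a count or within 0.05 of the identity ratio, and 35 moved. No direction reversed. The number of members was 310 at 20 molecules in each library, 106 at a level of 45 to 55% and 153 with molecules of 2 or more reads. With levels as means over molecules, 553 of 719 fragments were among the 711. The mixed share (population, clone 1, clone 2) was 59.9, 66.9 and 66.8% at 20 molecules, 66.5, 72.4 and 72.5% over whole molecules with 2 or more CpGs, 60.4, 66.5 and 66.9% without strands over 25 molecules and 59.9, 65.5 and 67.0% without calls at the first and last CpG. In the population and clone 1 it was 59.7 and 60.5% on windows of 5 CpGs and 54.9 and 58.8% with 2 or more reads. In clone 1 it was 66.9% at a level of 45 to 55%, 61.2% with levels as means over molecules and 65.3% without molecules whose last count is above 0. With 2 or more reads, the calls fell to 0 against clone 1, 0 against clone 2 and 4 between the clones, with 27, 35 and 37 members tested and 0.575, 0.863 and 4.41% of all fragments called, and the pattern identity ratio was 0.552. At 20 molecules, 32 of 101 members were called between the clones, beside 14.5% of all fragments. With 45 to 55% in the choosing libraries, 42.9% of fragments were at 40 to 60% in the population and 40.3% in clone 2. Chosen after seeing the data were the strand test on the same 4 CpGs (0, 0 and 0 members called, fragments with 2 to 4 CpGs not tested), leaving out fragment numbers from 1500000 (66.2, 72.2 and 73.4% mixed), adjacent pairs and leaving out rebuilt end calls. At 10 molecules per library, a level of 40 to 60% also fits fragments whose true level lies outside the range, and tags with 6 bases can be shared by molecules of a deep fragment.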
